A study of Caenorhabditis elegans with 8 samples.

Results

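Basement membranes of Caenorhabditis elegans were examined through 7 genes that encode their main proteins: let-2 (F01G12.5), emb-9 (K04H4.1), epi-1 (K08C7.3), lam-1 (W03F8.5), nid-1 (F54F3.1), unc-52 (ZC101.2) and ost-1 (C44B12.2). They were chosen by name, and their introns were looked up by sequence name in the authors' table of reads over introns. Of the 7 genes, 5 had listed introns, with 20 of the 20324 introns and 5 of the 5762 genes in the table. No intron of unc-52 or epi-1 was listed.

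A basement membrane is the thin sheet of extracellular matrix under epithelia and around muscle, nerve and gonad. Laminin heterotrimers form the network closest to the cell, collagen IV trimers form a second, covalently linked network, and nidogen and perlecan bind both. In the worm, body-wall muscle makes most of the collagen IV, which then reaches the membranes of other tissues. let-2 and unc-52 are known for alternative splicing: let-2 switches between mutually exclusive exons from embryo to later stages, and unc-52 makes several forms of perlecan.

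Libraries were made from whole adults of the wild-type strain N2. The spk-1(RNAi) group held 4 libraries from worms fed E. coli expressing spk-1 double-stranded RNA, and the control group held 4 libraries from worms fed E. coli with the empty vector L4440. Feeding began at the fourth larval stage and lasted 24 h at 25 °C after growth at 20 °C, and at least 100 adults were pooled per condition. spk-1 encodes a kinase of the SRPK family, whose substrates are serine- and arginine-rich (SR) splicing factors. In whole worms, fewer cells of a type and less RNA per cell cannot be told apart.

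Library totals ran from 2660062 to 40426751 junction reads after spk-1(RNAi) and from 1821717 to 47299659 in controls. The targeted gene spk-1 had 10 listed introns, 8 with lower mean reads after spk-1(RNAi). Summed over those 8, which were picked by that value, it had 60.5 to 149 CPM (junction reads scaled to a library total of 1000000) after spk-1(RNAi) and 380 to 491 CPM in controls. No listed intron had fewer than 21 reads in a control library, but counts after spk-1(RNAi) went as low as 1. An absent intron therefore says only that the authors' listing did not include it. In control replicate 2, the shallowest library, 21 reads are 11.5 CPM, so no listed intron lay lower there. No such floor is seen after spk-1(RNAi). The libraries fell into a shallow set, numbered 1 and 2 in each group, and a deep set, numbered 3 and 4, which also differed in the pattern of reads along genes. Values are therefore also given within these library sets.

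Collagen IV is built from the α2 chain, encoded by let-2, and the α1 chain, encoded by emb-9. let-2 lies on the minus strand of chromosome X, and 9 of its 19 annotated introns were listed. Summed over these, let-2 had 282, 248, 407 and 478 CPM in spk-1(RNAi) replicates 1 to 4, against 213, 148, 330 and 462 CPM in control replicates 1 to 4. Each spk-1(RNAi) library lay above the control of the same number, at ratios of 1.33, 1.67, 1.23 and 1.03, but the groups overlapped, since both sets of replicates 3 and 4 stood above both sets of replicates 1 and 2. The means were 354 ± 107 CPM after spk-1(RNAi) and 288 ± 138 CPM in controls (SD, n = 4 each).

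emb-9, on the minus strand of chromosome III, had 3 of 12 annotated introns listed. It had 63.1, 82.7, 65.6 and 81.2 CPM in spk-1(RNAi) replicates 1 to 4, against 58.8, 53.2, 60.8 and 72.3 CPM in the controls. Every pair was higher after spk-1(RNAi), with ratios of 1.07, 1.55, 1.08 and 1.12. The means were 73.1 ± 10.2 CPM after spk-1(RNAi) and 61.3 ± 7.99 CPM in controls (SD, n = 4 each), and control replicate 4 lay inside the spk-1(RNAi) range.

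Laminin was represented by lam-1, which encodes the β chain, on the plus strand of chromosome IV. A single intron of its 10 was listed, intron 5, which is 411 nt long. It had 8.65, 9.40, 8.31 and 18.9 CPM in spk-1(RNAi) replicates 1 to 4, against 12.6, 11.5, 7.51 and 12.46 CPM in the controls. The spk-1(RNAi) libraries were lower in pairs 1 and 2 and higher in pairs 3 and 4, and replicate 4 stood apart from the other 3. These values rest on few reads in the shallow libraries, 37 and 25 in spk-1(RNAi) replicates 1 and 2 and 100 and 21 in the same-numbered controls. The 21 reads of control replicate 2 equal the lowest control count of any listed intron, so its 11.5 CPM lies at the floor of the listing. The means were 11.3 ± 5.09 CPM after spk-1(RNAi) and 11.02 ± 2.39 CPM in controls (SD, n = 4 each).

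nid-1 encodes nidogen, which links laminin to collagen IV, and lies on the plus strand of chromosome V with 2 of 17 introns listed. It had 16.1, 16.2, 7.52 and 9.75 CPM in spk-1(RNAi) replicates 1 to 4, against 17.1, 24.7, 8.25 and 8.73 CPM in the controls. It was lower after spk-1(RNAi) in pairs 1 to 3 and higher in pair 4. In control replicate 2 its introns 7 and 10 had 24 and 21 reads, where 21 is the lowest control count listed. Unlike let-2, it was higher in replicates 1 and 2 than in replicates 3 and 4 of both groups. The means were 12.4 ± 4.43 CPM after spk-1(RNAi) and 14.7 ± 7.82 CPM in controls (SD, n = 4 each), a difference smaller than either SD.

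ost-1 encodes SPARC, a secreted calcium-binding glycoprotein that binds collagen IV. On the plus strand of chromosome IV, all 5 of its introns were listed. It had 375, 342, 529 and 595 CPM in spk-1(RNAi) replicates 1 to 4, against 308, 188, 461 and 518 CPM in the controls. All 4 pairs were higher after spk-1(RNAi), at ratios of 1.22, 1.81, 1.15 and 1.15, and the groups overlapped. The means were 460 ± 121 CPM after spk-1(RNAi) and 369 ± 150 CPM in controls (SD, n = 4 each).

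Thus let-2, emb-9 and ost-1 were higher in 4 of 4 pairs, as were 7.51% of all genes, while lam-1 was higher in 2 pairs and nid-1 in 1. In all 3 genes pair 2, the shallowest pair, had the largest ratio. The groups did not overlap in 0 of the 5 genes, against 0.729% of all genes. Together the 5 genes took 0.0911% ± 0.0229 of junction reads after spk-1(RNAi) and 0.0744% ± 0.0285 in controls (SD, n = 4 each).

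**Figure D1:**
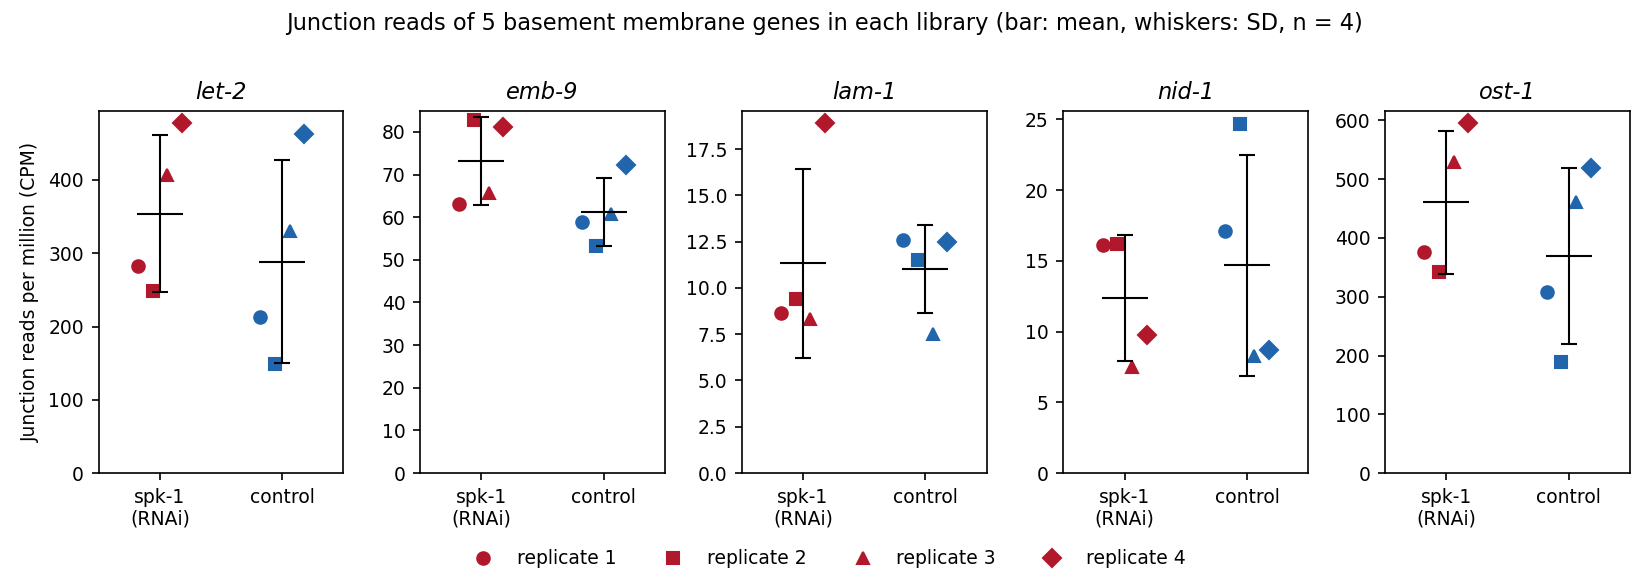
CPM of junction reads for each of the 5 listed genes (vertical axes, from 0) in the spk-1(RNAi) libraries (red, left) and the control libraries (blue, right), with a symbol for each replicate number, a bar for the mean and whiskers for the SD (n = 4). The spk-1(RNAi) symbol stands above the control symbol of the same shape in 4 of 4 pairs for let-2, emb-9 and ost-1, in 2 for lam-1 and in 1 for nid-1, and the groups overlap in every panel.

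Levels were compared between genes per listed intron. ost-1 was highest, at 92.1 ± 24.3 CPM per intron after spk-1(RNAi) and 73.8 ± 29.9 in controls, above 90.5% of all genes by its mean over the 8 libraries. let-2 followed at 39.3 ± 11.9 CPM per intron after spk-1(RNAi) and 32.0 ± 15.4 in controls, and emb-9 at 24.4 ± 3.41 and 20.4 ± 2.66. lam-1 had the 11.3 and 11.02 CPM given above, and nid-1 had 6.19 ± 2.22 CPM per intron after spk-1(RNAi) and 7.35 ± 3.91 in controls (SD, n = 4 each), above 3.77% of genes. Within libraries, ost-1 exceeded let-2 in 8 of 8 and emb-9 exceeded lam-1 in 8 of 8. The neighbours let-2 and emb-9 were less separate, with let-2 higher in 6 libraries, equal in 1 and lower in control replicate 2. lam-1 exceeded nid-1 in 7 of 8 libraries, and their control ranges overlapped. Since introns of one gene were read unequally, this order is one of the listed introns and not of the whole transcripts.

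No gene was called for a change in junction reads. In edgeR's quasi-likelihood test of 5762 genes, 0 of the 5 basement membrane genes and 0 genes in all (0%) had a Benjamini-Hochberg adjusted p under 0.05. At an unadjusted p under 0.05 the counts were 0 of the 5 and 54 of all genes (0.937%), and DESeq2 likewise called 0 of the 5 and 0 of all genes (0%). The fitted log2 fold change of spk-1(RNAi) over control was 0.30 for ost-1 (SE 0.43, 95% interval -0.65 to 1.26) and 0.28 for let-2 (SE 0.46, interval -0.74 to 1.29). It was 0.27 for emb-9 (SE 0.25, interval -0.30 to 0.83), 0.13 for lam-1 (SE 0.39, interval -0.75 to 1.001) and -0.16 for nid-1 (SE 0.36, interval -0.96 to 0.65). Over all genes 49% were fitted higher, and the median was -0.0045. In this fit the intervals of let-2, ost-1 and lam-1 reach a doubling of reads.

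Because same-numbered libraries deviated together, the fit was also made with the replicate number as a block. The log2 fold changes were then 0.39 for let-2 (SE 0.15, 95% interval 0.06 to 0.72, unadjusted p = 0.0239, adjusted p = 0.462 in edgeR) and 0.40 for ost-1 (SE 0.16, interval 0.05 to 0.76, unadjusted p = 0.0295, adjusted p = 0.483 in edgeR). emb-9 stood at 0.25 (SE 0.15, adjusted p = 0.594 in edgeR's blocked test). With the block 2 of the 5 genes had an unadjusted p under 0.05, against 9.6% of all genes, and 0 of the 5 and 0 of all genes (0%) were called. With a term for library set in place of the block, 0 of the 5 had an unadjusted p under 0.05, against 4.39% of all genes. let-2 then stood at 0.38 (SE 0.18, 95% interval -0.02 to 0.79) and ost-1 at 0.39 (SE 0.19, interval -0.03 to 0.80). The upper limits of let-2 and ost-1 in these fits lay below a doubling of reads. The size depended on pair 2: without it the blocked log2 fold change was 0.21 for let-2, 0.19 for ost-1 and 0.09 for emb-9.

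Within the library sets, the fitted log2 fold change of let-2 was 0.65 in replicates 1 and 2 alone and 0.11 in replicates 3 and 4 alone. Those of ost-1 were 0.62 and 0.15, and those of emb-9 were 0.49 and 0.09. lam-1 changed sign between the sets, at -0.32 and 0.40, and nid-1 stood at -0.24 and -0.03. Leaving out single libraries also mattered: without control replicate 2 the values were 0.02 for let-2, 0.04 for ost-1 and 0.07 for nid-1, and without spk-1(RNAi) replicate 4 the value for lam-1 was -0.32. None of these fits called any of the 5 genes.

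**Figure D2:**
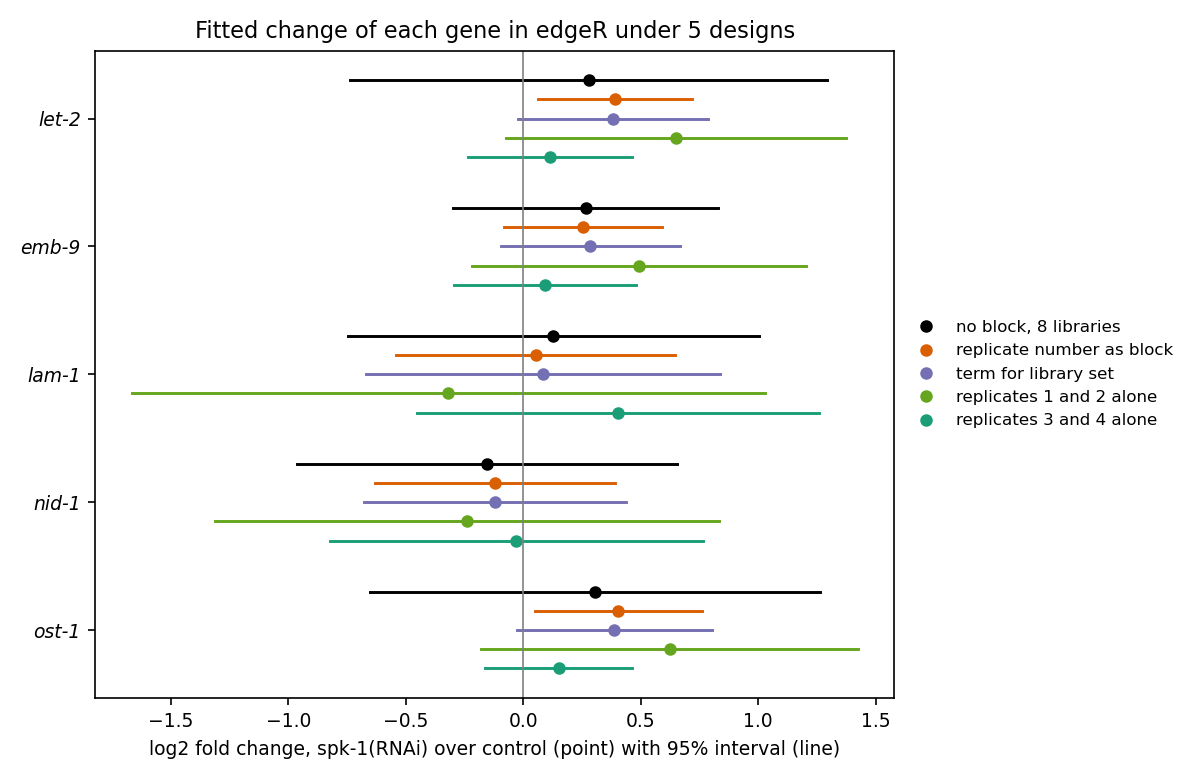
Log2 fold change of spk-1(RNAi) over control (horizontal axis, points) with its 95% interval (lines) for each gene in edgeR fits of 5 designs. The points of let-2, emb-9 and ost-1 lie above 0 in all 5 designs, with larger values in replicates 1 and 2 alone (0.49 to 0.65) than in replicates 3 and 4 alone (0.09 to 0.15), while lam-1 lies on both sides of 0.

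Introns were examined one by one along the genes. Of the 20 introns, 17 were fitted higher after spk-1(RNAi), against 50.2% of all introns, and 3 lower, with a median log2 fold change of 0.26 and a range of -0.22 to 0.49. Introns of the same gene are not independent, and 9 of the 20 are of let-2 and 5 of ost-1, so these counts follow few genes. In edgeR's test of 20324 introns 0 of the 20 were called, as were 0 introns in all (0%), and 0 of the 20 had an unadjusted p under 0.05, against 0.851% of all introns. DESeq2 called 0 of the 20 and 6 introns in all (0.0295%). With the replicate block 19 were fitted higher, against 51.3% of all introns, and 4 had an unadjusted p under 0.05, against 8.4%. In that fit 0 of the 20 were called, against 14 introns in all (0.0689%). With the library set term 0 of the 20 had an unadjusted p under 0.05, against 3.56% of all introns. By pairs, 7 introns were higher in 4 of 4, against 6.79% of all introns, 8 in 3 and 5 in 2. The authors' deposited table gave a p under 0.05 for 3 of the 20, against 6.02% of all introns.

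The highest fitted value in let-2 was that of intron 17, the last, 58 nt long (X, 16381043 to 16381100, ce10). It had 44.2, 36.5, 21.97 and 19.2 CPM in spk-1(RNAi) replicates 1 to 4, against 30.6, 15.9, 20.1 and 18.8 CPM in the controls (log2 fold change 0.47, SE 0.32). The difference was nearly all in replicates 1 and 2. The lowest was that of intron 10, 49 nt long (X, 16385767 to 16385815), with 17.99, 11.7, 51.01 and 48.3 CPM after spk-1(RNAi) and 13.1, 12.1, 42.7 and 63.0 CPM in controls (log2 fold change -0.06, SE 0.71). The lowest p that the authors' deposited table gave for an intron of these genes was 0.0235, at let-2 intron 13 (X, 16383584 to 16383860), which was higher in 4 of 4 pairs with ratios of 1.22 to 1.64. The introns flanking the alternative exons of let-2 were not listed.

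In emb-9 the last annotated intron, intron 11 (III, 9337176 to 9337592, 417 nt), had the highest value, with 24.3, 29.3, 19.0 and 16.6 CPM after spk-1(RNAi) and 18.01, 19.8, 17.3 and 13.1 CPM in controls. Its log2 fold change was 0.40 (SE 0.28), it was higher in 4 of 4 pairs, and the authors' deposited table gave it a p of 0.0356. Intron 4 (III, 9342381 to 9342437, 57 nt) was lowest at 0.14 (SE 0.44), lower than control in pair 1 and higher in the other pairs.

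In ost-1, intron 3 (IV, 1108947 to 1109214, 268 nt) had the highest value of all 20 introns, 0.49 (SE 0.47). It had 125, 105.3, 119 and 131.2 CPM after spk-1(RNAi) and 97.2, 31.8, 95.3 and 109 CPM in controls. The spk-1(RNAi) libraries lay close together, and control replicate 2, with 58 reads, stood below the other 3 controls. Intron 4 (IV, 1109422 to 1109895, 474 nt) was lowest, with 43.2, 39.1, 102 and 97.1 CPM after spk-1(RNAi) and 37.7, 19.8, 89.6 and 111 CPM in controls (log2 fold change 0.08, SE 0.65).

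nid-1 had intron 7 (V, 12912514 to 12912822, 309 nt), common to its 3 annotated transcripts, and intron 10 (V, 12914120 to 12915799, 1680 nt), annotated in transcript c alone. Intron 10 spans 4 exons of transcript a, 1008 nt in sum, and 3 exons of transcript b, 837 nt in sum, so its reads come from RNA that joins across them. Reads over intron 10 relative to intron 7 were 0.683, 0.792, 1.38 and 1.57 in spk-1(RNAi) replicates 1 to 4, against 0.545, 0.875, 3.11 and 1.70 in the controls. This ratio was lower after spk-1(RNAi) in pairs 2 to 4 and higher in pair 1, and it was higher in replicates 3 and 4 than in replicates 1 and 2 of both groups. In control replicate 2 the ratio divides 21 reads by 24, at and near the floor of the listing. The log2 fold changes were -0.05 for intron 7 (SE 0.57) and -0.22 for intron 10 (SE 0.39).

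Whether introns of one gene moved unequally was tested with diffSpliceDGE in the 4370 genes with more than 1 listed intron. Of the 4 basement membrane genes tested, 0 were called, and 0 had an unadjusted p under 0.05, where the lowest was 0.883, for nid-1 (adjusted p = 0.9999 in edgeR). Of all genes 1 was called (0.0229%) and 3 had an unadjusted p under 0.05 (0.0686%). With the block the lowest unadjusted p among the 4 was 0.750, for ost-1, and 0 were called, against 3 of all genes (0.0686%). None of the 20 introns shared a donor or an acceptor with another listed intron, so the choice between splice sites, which 289 introns of the table allow, could not be measured in these genes.

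What did vary along the genes was the library set. Reads over the last 2 listed introns of let-2 relative to the first 2 were 3.71, 2.05, 0.978 and 0.842 in spk-1(RNAi) replicates 1 to 4, against 3.37, 1.53, 0.895 and 0.745 in the controls. Replicates 1 and 2 of both groups thus had more reads toward the 3′ end of the transcript than replicates 3 and 4. In ost-1, intron 5 over intron 1 gave 3.11, 1.62, 0.647 and 0.637 after spk-1(RNAi), and 2.33, 1.68, 0.714 and 0.628 in controls, the same split by set. Within numbered pairs the let-2 ratio was higher after spk-1(RNAi) in 4 of 4, whereas that of ost-1 was higher in pairs 1 and 4. The share of all genes with such a ratio higher in 4 of 4 pairs was not computed. In control replicate 2 the let-2 ratio rests on 46 and 29 reads over 28 and 21, where 21 is the lowest control count listed. diffSpliceDGE gave let-2 an unadjusted p of 0.990 without the block and 0.876 with it. In emb-9, intron 11 over intron 1 gave 1.44, 0.813, 1.06 and 0.690 after spk-1(RNAi), and 1.17, 1.06, 0.846 and 0.574 in controls, without a clean split by set.

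**Figure D3:**
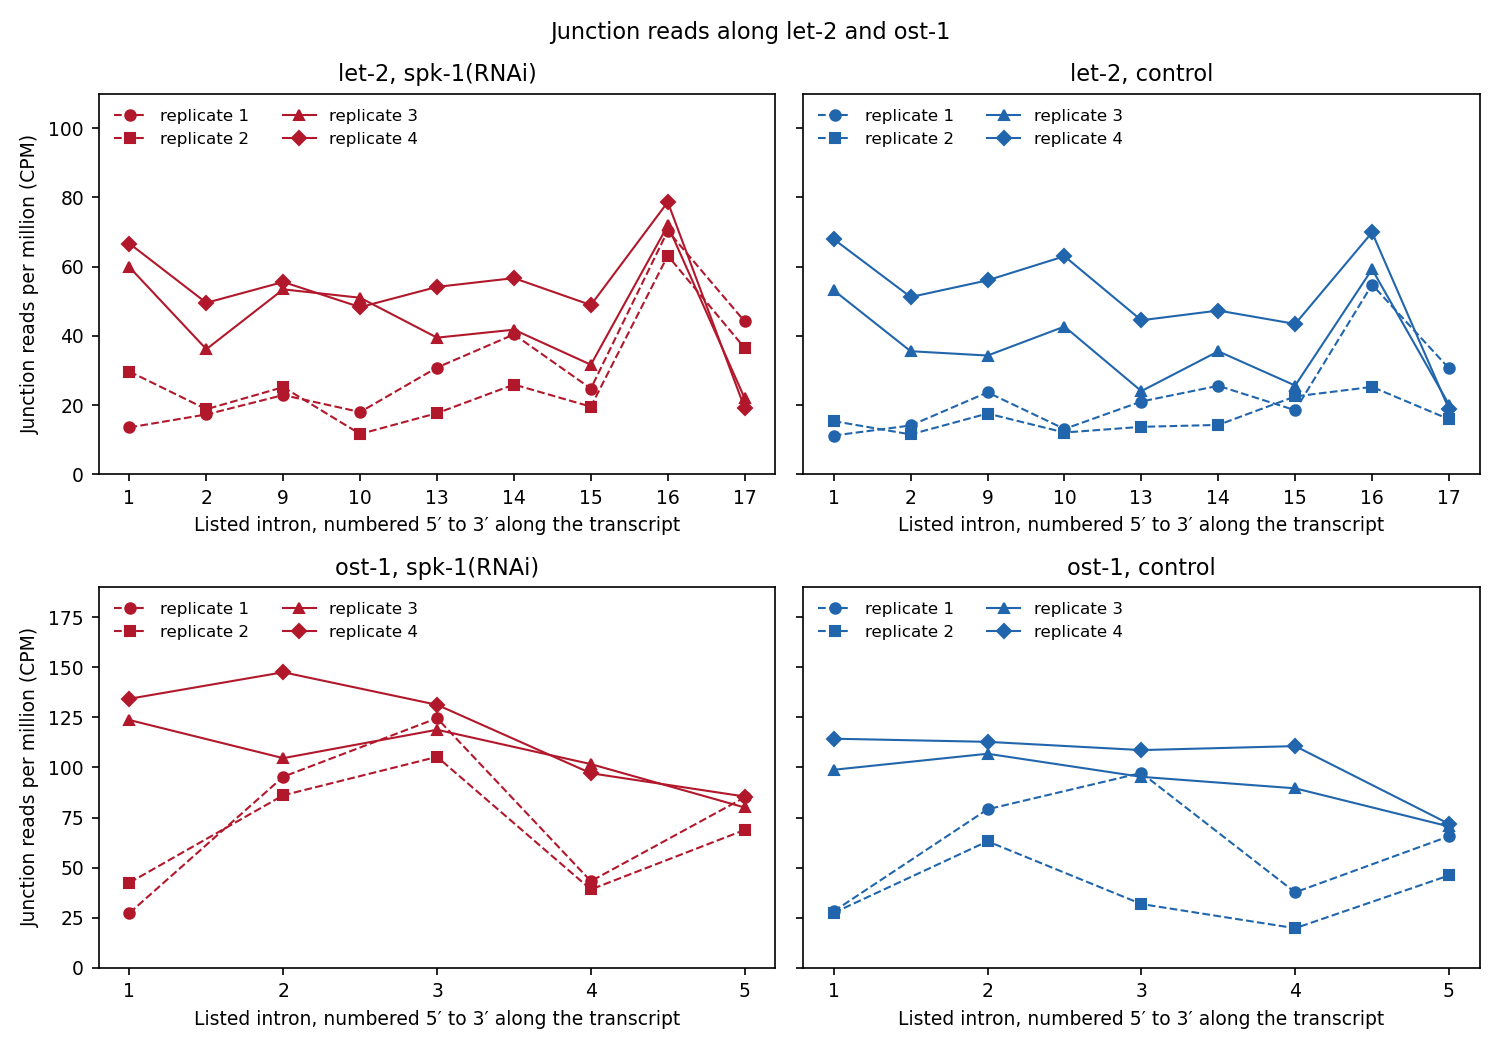
CPM over each listed intron of let-2 (top) and ost-1 (bottom), ordered 5′ to 3′ (horizontal axes, annotated intron number), in spk-1(RNAi) (left, red) and control (right, blue) libraries, with replicates 1 and 2 dashed and replicates 3 and 4 solid. At intron 1 of let-2, replicates 1 and 2 have 11.2 to 29.7 CPM and replicates 3 and 4 have 53.2 to 67.9 CPM, whichever the group, while the order is turned round at intron 17 after spk-1(RNAi).

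The level also differed by set. Mean CPM in replicates 3 and 4 over that in replicates 1 and 2 was 1.67 after spk-1(RNAi) and 2.20 in controls for let-2, where the median gene had 0.797 and 0.708. For ost-1 the quotients were 1.57 after spk-1(RNAi) and 1.97 in controls, and for emb-9 1.01 and 1.19. nid-1 had 0.535 and 0.406, and lam-1 had 1.51 and 0.827. By these means the sets of let-2, ost-1 and nid-1 lay further apart than the groups did. So did those of lam-1, though in opposite directions after spk-1(RNAi) and in controls.

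Correlations over the 8 libraries, which share these set differences, were taken on log2 CPM scaled by edgeR's TMM factors, unlike the CPM given above. The factors were 1.02 to 1.22 in replicates 1 and 2 and 0.832 to 0.911 in replicates 3 and 4. Such scaling raises replicates 3 and 4 of every gene relative to replicates 1 and 2. Correlations without it were not computed. With it, let-2 and ost-1 correlated with r = 0.99 as a description. emb-9 correlated with let-2 at r = 0.87 and with ost-1 at r = 0.88. nid-1 ran the other way, at -0.94 with let-2 and -0.95 with ost-1. lam-1 had 0.51 with let-2 and 0.46 with ost-1 on this scale, which includes the shift by set that the factors give every gene. In unscaled CPM the controls of lam-1 had a set quotient of 0.827, against 2.20 for let-2 and 1.97 for ost-1. A mean profile of the 5 genes was formed on the same scale over the same 8 libraries. The genes outside this group most like it were nlp-31 (r = 0.96), which encodes an antimicrobial peptide, and ent-2 (0.96), a nucleoside transporter of the ENT family. Next came cav-1 (0.94), which encodes caveolin, K10D2.5 (0.94) and F46F2.3 (0.94). With this profile emb-9 had r = 0.93, let-2 0.88, ost-1 0.86 and lam-1 0.79. Each of these genes is itself part of the mean, which raises its r, so these values cannot be set beside those of outside genes. nid-1 had -0.69, so the profile does not stand for nid-1.

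The remaining genes of the pathway were taken from lists. Of 15 further basement membrane components 4 had listed introns, 2 fitted higher and 2 lower, with 0 called. The laminin γ chain lam-2 had 16.5 ± 5.55 CPM after spk-1(RNAi) and 15.01 ± 9.55 CPM in controls, papilin mig-6 had 64.6 ± 18.7 and 58.0 ± 15.7 CPM, and syndecan sdn-1 had 19.9 ± 2.83 and 22.2 ± 5.79 CPM (SD, n = 4 each). Each of these differences was smaller than the larger SD. Hemicentin him-4, fibulin fbl-1 and collagen XVIII cle-1 were not listed. Of 14 receptors and links to the cell 5 were listed, 2 fitted higher and 3 lower, with 0 called, and the β integrin pat-3 had 162 ± 42.4 CPM after spk-1(RNAi) and 151 ± 34.02 CPM in controls (SD, n = 4 each).

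Of 12 genes for making, folding and secreting collagen 7 were listed, 3 fitted higher and 4 lower, with 0 called. Among them pdi-2, a protein disulfide isomerase that also serves in prolyl 4-hydroxylase, had 629 ± 358 CPM after spk-1(RNAi) and 539 ± 305 CPM in controls (SD, n = 4 each). Of 13 matrix proteases and inhibitors 4 were listed, 1 fitted higher and 3 lower, with 0 called. The median log2 fold changes of these 4 lists were 0.08 for the further components, -0.0013 for receptors, -0.02 for collagen making and -0.08 for proteases, where that of all genes was -0.0045.

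Splicing factors known to act on unc-52 or let-2 were listed for 4 of 5 genes. smu-1, whose protein acts with that of smu-2 on unc-52 splicing, had 137 ± 38.4 CPM after spk-1(RNAi) and 150 ± 28.2 CPM in controls, and smu-2 had 142 ± 50.8 and 137 ± 50.2 CPM. mec-8, which encodes an RNA-binding protein that governs unc-52 exon choice, had 11.9 ± 4.85 CPM after spk-1(RNAi) and 14.4 ± 3.43 CPM in controls, and ccar-1 had 355 ± 76.2 and 402 ± 72.9 CPM (SD, n = 4 each). In edgeR 0 of the 4 were called, 1 was fitted higher and 3 lower. asd-2, which encodes a STAR-family protein acting on let-2, was not listed.

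Markers of tissues that make or border basement membranes were measured beside these genes. Of 15 muscle markers 11 were listed. All 11 were fitted higher after spk-1(RNAi), against 49% of all genes, with a median log2 fold change of 0.23 and 0 called. With the replicate block their median was 0.38, and 0 were called. In that fit 4 of the 11, all higher, had an unadjusted p under 0.05, against 9.6% of all genes. Their summed level was 5624, 7896, 11777 and 12496 CPM in spk-1(RNAi) replicates 1 to 4, against 4453, 4227, 10902 and 11484 CPM in the controls. These sums were lowest in replicates 1 and 2 of both groups. The markers myo-3, unc-22, unc-89 and ttn-1 were not listed. let-2 and ost-1 thus moved with this sum by pair and by set, and emb-9 by pair. Singly, unc-54, mlc-2, mlc-3, mup-2 and unc-27 were higher in 3 of 4 pairs and the other listed markers in 4. The list for making, folding and secreting collagen was split by set too. Its sums were 1630, 1517, 2453 and 2480 CPM after spk-1(RNAi) and 1795, 1552, 2209 and 2243 CPM in controls. The part of muscle RNA in the values of let-2, ost-1 and emb-9 was not tested. Of 18 germline and oocyte markers all 18 were listed, 7 fitted higher and 11 lower, with sums of 11305 to 16699 CPM after spk-1(RNAi) and 12349 to 17348 CPM in controls. Of 12 early embryo markers 0 were listed, and of 6 gonad sheath and distal tip markers 1 was, inx-8.

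The authors' deposited table of exon bins, tested by them with DEXSeq, holds all 7 genes and gives no direction of change. Across the 7 genes 127 of 130 bins had a p, and 1 was under 0.05, against 0.986% of all bins. That bin, number 19 of epi-1, which encodes a laminin α chain, had a mean signal of 1.71, with a p of 0.0366 and an adjusted p of 1 in the authors' deposited table of DEXSeq results. For unc-52, which encodes perlecan, 39 bins had a p, the lowest 0.204, with a median mean signal of 180. Of the 7 genes 0 had a bin with an adjusted p under 0.05, against 0.00355% of all bins.

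In let-2 these bins reached the alternative exons that the junction table does not list. Bins were matched to annotated exons by their order, at the offset where length and mean signal over the 15 exons common to both transcripts correlated best (r = 0.93 on log2 scales, against at most 0.68 at other offsets). The more 5′ alternative exon, of transcript a and 108 nt long, had a deposited mean of 44.2, or 0.409 per nt. The other, of transcript b and 111 nt long, had 595, or 5.36 per nt, which is 13.1-fold more. In the worm the more 5′ exon is the one known from embryos and the other the one known from larvae and adults. Exons common to both transcripts had 3.001 to 10.2 per nt with a median of 4.88. The authors' deposited p was 0.720 for the exon of transcript a and 0.714 for that of transcript b, with adjusted p of 1 for both. These means are over all libraries, so they carry no SD and no comparison of the groups.

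**Figure D4:**
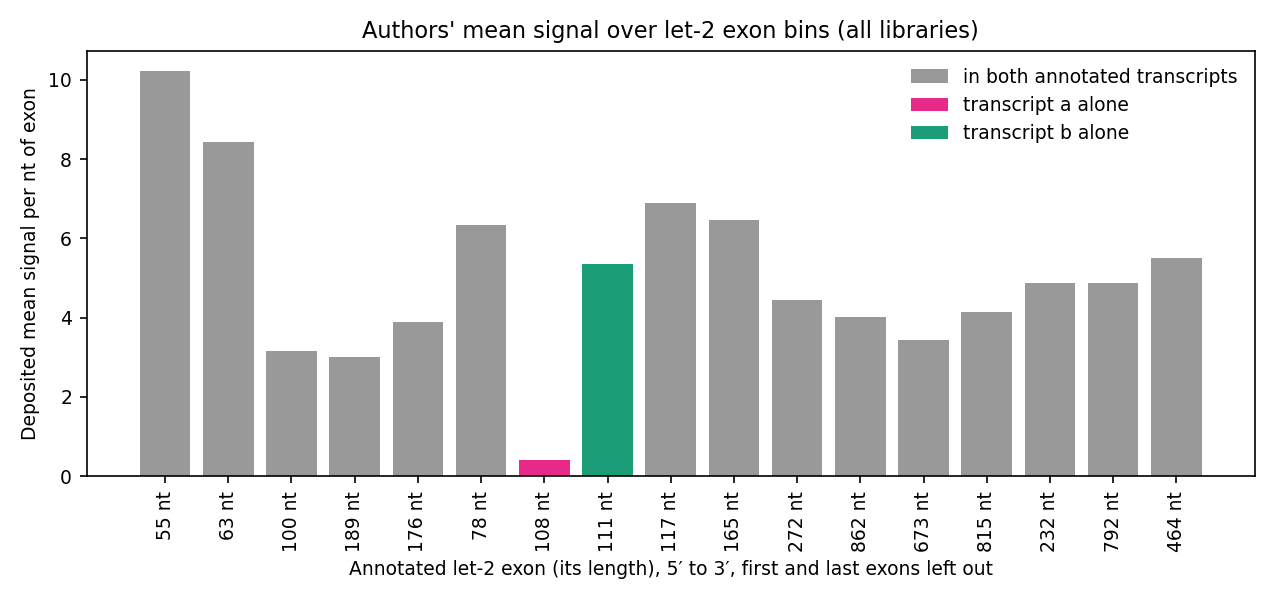
Authors' deposited mean signal over all libraries, per nt of exon (vertical axis, from 0), for the internal exons of let-2 in order 5′ to 3′ (horizontal axis, labelled by exon length). The exon of transcript a alone stands at 0.409 per nt, that of transcript b alone at 5.36, and exons common to both (grey) at 3.001 to 10.2.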

How the data were processed

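Polyadenylated RNA of whole worms was sequenced in 8 libraries. Per the file headers, the authors deposited read counts per intron, not normalized, with a ratio for each numbered pair and a p-value per intron. The ratio headings put control on top, whereas dividing the reads shows that each ratio has spk-1(RNAi) on top, and ratios were read so. A second deposited table holds p-values, adjusted p-values and a mean signal per exon bin, per the file headers. TopHat 1.4.1, Bowtie2 2.0.0 and ce10 are named in the submitters' processing notes. For the counter, the annotation and the rule of listing introns, nothing is given in the sources used here.

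Of 20349 intron entries, 25 introns stood on both strands and 1 copy was kept, leaving 20324. A heading that stood over 2 columns was resolved by the authors' ratios, which equalled the quotient of the reads in 100% of introns for the column taken as replicate 4 and in at most 0.206% for other columns. No per-sample column was left unused (0 columns). Reads were summed per gene over its listed introns. Intron numbers come from the WBcel235 annotation by matching intron lengths (20 of 20), and coordinates are those of the files. Levels (CPM) are counts scaled to a library total of 1000000, and tests used edgeR 4.0.16 (R 4.3.3, limma 3.58.1) with TMM scaling, filterByExpr, group alone as a term, and adjustment over all features at 0.05. DESeq2 1.42.0, other scalings, other filters, a library set term, subsets and left-out libraries were alternatives. Simulated data were used for the edgeR fits of genes and introns without and with the replicate block, and for usage without it. The other fits were not simulated, and the simulated counts had a single dispersion and no difference between library sets.

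Replicate numbers were taken as pairing the libraries, as in the authors' ratios. Deviations of TMM-scaled log2 CPM from group means correlated at 0.881, 0.686, 0.713 and 0.754 within pairs 1 to 4. Across numbers of one library set they correlated at 0.350 and 0.243 in replicates 1 and 2, and at 0.699 and 0.687 in replicates 3 and 4, so in the deep set the values hardly tell the number from the set. Nothing in the labels describes replicates as separate cultures. The p-values therefore cover the spread among these libraries alone, possibly technical. Genes and lists were chosen with earlier results of these data known. Named were the 7 genes, the introns with the highest and lowest fold change in each, preset list genes where listed, and the 5 genes of the most similar profile. let-2 intron 13 and the unlisted asd-2 were named after their values were seen. Symbols matched the reference for 5709 of 5762 names.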

Additional observations from a re-analysis of the deposited data

Results flagged for a closer look

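In 62 groups of 4 libraries tested for a single distant value, 3 were found, where chance flags about 1 in 20. The lam-1 level of 18.9 CPM in spk-1(RNAi) replicate 4 lay far above the other 3 libraries of its group. Reads over nid-1 intron 10 were 11.5 CPM in control replicate 2, far above the other controls, on 21 reads. As 21 is the lowest control count listed, 11.5 CPM is the lowest level any listed intron had in that library. This flag therefore does not show a raised level. The reads of the last listed intron of let-2 over those of the last listed intron of emb-9 gave 1.82 in spk-1(RNAi) replicate 1, above 1.15 to 1.24 in the other spk-1(RNAi) libraries, and control replicate 1 had 1.70.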

How the results depend on the processing

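In every alternative run, 0 of the basement membrane genes and introns were called. The counts over all features did move. Against 0 genes called, there were 7 in replicates 3 and 4 alone, 17 in replicates 2 and 3 alone with the replicate block, 56 in DESeq2 with the block, and with the replicate block 5 without pair 1 and 7 without pair 2. Against 0 introns, there were 14 with the replicate block, 3 with the library set term, 55 in replicates 3 and 4 alone, 14 in replicates 2 and 3 alone with the block, 6 in DESeq2, 51 in DESeq2 with the block, and with the block 29, 14, 12 and 11 without pairs 1 to 4. Against 1 gene called for usage, there were 3 with the replicate block, 3 with the set term, 2 in replicates 3 and 4 alone, and 3 with the block whichever pair was left out.

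Some log2 fold changes near 0 turned sign, and the cause was not tested. let-2 intron 10 (-0.06) was 0.062 with the replicate block, 0.073 with the set term, 0.33 in replicates 1 and 2 alone, 0.16 in replicates 2 and 3 alone with the block and 0.053 in DESeq2 with the block. It was 0.014, 0.017 and 0.25 with the block without pairs 2, 3 and 4, and -0.45 to 0.47 when single libraries were left out. nid-1 intron 7 (-0.05) was 0.10 with the replicate block, 0.087 with the set term, 0.36 in replicates 3 and 4 alone, 0.17 in replicates 2 and 3 alone with the block and 0.086 in DESeq2 with the block. It was 0.19, 0.18 and 0.033 with the block without pairs 1, 2 and 4, and -0.36 to 0.25 with single libraries left out. ost-1 intron 4 was -0.074 in replicates 3 and 4 alone, -0.00029 with the block without pair 2, and -0.25 to 0.48 with single libraries left out. lam-1 was -0.32 in replicates 1 and 2 alone, -0.18 with the block without pair 4, and -0.32 to 0.29 with single libraries left out. With single libraries left out, emb-9 intron 4 ran from -0.20 to 0.44 and nid-1 from -0.30 to 0.075. The signs of let-2, emb-9 and ost-1 held in all 26 settings of each.

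The test of shared sites and its alternatives were not run, because 0 of the 20 introns lie at one. DESeq2 was not run for usage. The shallowest library, control replicate 2, had 21 reads for lam-1 and 45 for nid-1, which limits both. The lam-1 count there is the lowest listed in a control.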
